A study of Homo sapiens with 24 samples.

Results

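DNA methylation of CpG dinucleotides is written by the DNA methyltransferases and removed through oxidation by the TET dioxygenases. DNMT1 copies the pattern onto the new strand behind the replication fork and is brought there by UHRF1, a ubiquitin ligase that binds hemimethylated CpG, whereas DNMT3A and DNMT3B methylate unmodified sites. TET1, TET2 and TET3 oxidise 5-methylcytosine with oxygen, iron and 2-oxoglutarate, and the oxidised bases are lost at replication or excised. In cancer cells, CpG islands of many promoters are methylated while much of the genome loses methylation.

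The mRNAs of these 7 genes, of 58051 genes in the count tables, were described in 4 human cancer cell lines treated with Ocoxin, a nutritional mixture of plant extracts, vitamins, amino acids and minerals. The 7 genes were selected on earlier results of these same libraries, namely their level in control cells and their difference after Ocoxin, so the values of the 7 are given as a description without p-values. The lines were SW620 from a colorectal adenocarcinoma (COAD), BxPC-3 from a pancreatic adenocarcinoma (PAAD), LNCaP from a prostatic adenocarcinoma (PRAD) and HCC-70 from a triple-negative breast cancer (TNBC). Each line gave 3 control and 3 Ocoxin libraries, 24 in all, from cells kept for 48 h in medium with little serum, with Ocoxin diluted 1:700 for COAD and TNBC, 1:500 for PAAD and 1:50 for PRAD. These dilutions were set at the half-maximal inhibitory dose of each line, so the dose differed between lines along with the line, and the effect of one cannot be told apart from that of the other except between COAD and TNBC. The labels carried the dilution for control libraries as well, and the titles separated control from Ocoxin. Nothing in the labels said whether the 3 libraries of a group came from separate cultures, so the spread between them may be technical. No DNA methylation was measured.

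The libraries held 25160757 to 39009959 counts in COAD, PAAD and TNBC and 9063968 to 9520969 in PRAD, which was counted in a separate run with another setting, so PRAD levels are set beside the others and not compared with them. In control libraries the colon gene VIL1 lay at 525 to 527 CPM, the count scaled to the size of the library, in SW620, the ductal keratin KRT7 at 969 to 1103 CPM in BxPC-3, the prostate kallikrein KLK3 at 399 to 410.0 CPM in LNCaP and the basal keratin KRT5 at 1468 to 1670 CPM in HCC-70. Not every marker was highest in its own line, since KRT5 had a mean of 3133 CPM in BxPC-3 and EGFR 596 CPM there against 499.9 CPM in HCC-70, and the ductal marker KRT19 had 1292 CPM in BxPC-3 against 1530 CPM in HCC-70. The ductal marker SOX9 was at 19.6 to 25.1 CPM in BxPC-3 controls and had a mean of 212 CPM in SW620. Of the leukocyte genes, PTPRC stayed at or under 0.214 CPM in the libraries of every group and CD3E was at 1.66 to 2.88 CPM in BxPC-3. The fibroblast collagen COL1A1 was at 46.5 to 65.4 CPM in LNCaP, where COL1A2 had no count. HCC-70 controls held ESR1, the estrogen receptor, at 5.51 to 7.56 CPM and no count of the progesterone receptor PGR. The endothelial cadherin CDH5 was at 58.6 to 65.4 CPM in BxPC-3 controls and 92.4 to 104.3 CPM after Ocoxin, and the part of these genes' cell types in the results was not tested.

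DNMT1 and UHRF1 are known to be transcribed ahead of S phase, and their promoters were therefore searched for the letters of the E2F site. The RefSeq promoter windows, on GRCh38.p14, ran from 250 bases before to 50 bases after a transcript start. Each of the 7 genes had at least 1 window, which need not be at its first start. The 4 forms TTTCCCGC, TTTCGCGC, TTTGCCGC and TTTGGCGC were searched on both strands, and 3.31% of the 35116 windows held at least 1. DNMT1 had 1 match and UHRF1 had 2, in separate start windows, whereas the windows of DNMT3A, DNMT3B, TET1, TET2 and TET3 held none of these letters. The only DNMT3B window lies inside the gene, so the first start of DNMT3B was not searched. The matches are shown 5′ to 3′ on the gene's strand with the motif letters in capitals. The DNMT1 site lies at chr19:10194937-10194966 on the minus strand and its motif runs from base -2 to base 5, where base 0 is the first transcribed base. First and second below number the searched UHRF1 windows and not the starts of the gene. The 250 bases before the first start lie at chr19:4909251-4909500 and those before the second at chr19:4909894-4910143, both on the plus strand. The motif is at bases -14 to -7 and -160 to -153.
DNMT1 site: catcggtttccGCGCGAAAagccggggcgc
UHRF1 first start: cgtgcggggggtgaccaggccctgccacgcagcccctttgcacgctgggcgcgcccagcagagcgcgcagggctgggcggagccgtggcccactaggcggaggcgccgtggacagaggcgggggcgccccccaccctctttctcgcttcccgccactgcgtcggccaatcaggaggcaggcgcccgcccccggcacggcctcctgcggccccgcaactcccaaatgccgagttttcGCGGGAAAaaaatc
UHRF1 second start: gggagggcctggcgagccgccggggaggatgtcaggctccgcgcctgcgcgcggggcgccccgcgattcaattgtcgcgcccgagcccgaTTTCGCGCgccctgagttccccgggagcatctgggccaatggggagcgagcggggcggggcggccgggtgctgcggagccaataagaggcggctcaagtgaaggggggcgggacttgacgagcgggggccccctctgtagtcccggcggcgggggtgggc

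These matches are a description of letters and not of binding. Of a list of 32 S phase genes used below, 27 had a window and 15 of those held the motif, against 3.99% of all 27305 genes with a window. Each form of the motif contains a CpG, and S phase windows held a median of 30.5 CpG against 14 over all windows. Of the other listed genes, with a median of 21 CpG, 13.8% held the motif. The part of CpG density in these shares was not tested. In 300 bases, the window of DNMT1 held 30 CpG dinucleotides, those of UHRF1 36 to 46 and those of TET3 33 to 45. The median window held 14. The 6 DNMT3A windows held 18 to 46 and the TET2 windows 13 and 35. The single DNMT3B window held 3 and the 3 TET1 windows held 6 to 11. The DNMT3B window, at chr20:32779602-32779901, lies inside the gene, whose exons begin at base 32762385, so its value does not describe the first start. The TET1 windows that begin at bases 68600018 and 68600224 also lie inside their gene, which begins at 68560656. The DNMT1 window, at chr19:10194904-10195203, and the 3 UHRF1 windows lie inside their genes too, as do some windows of DNMT3A, TET2 and TET3. Exons of DNMT1 reach base 10231286 on the minus strand, and those of UHRF1 begin at base 4903080 on the plus strand. The outermost starts of DNMT1 and UHRF1 were thus not searched.

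In control cells DNMT1 was the most abundant of the 7 mRNAs per kilobase of exon in every line and UHRF1 had the second highest mean, although in PRAD its range overlapped that of TET3. In COAD the control level of DNMT1 was 35.2 ± 2.40 CPM per kb (SD, n = 3) and that of UHRF1 was 33.3 ± 1.31, and their ranges overlapped. The levels of DNMT1 were 12.7 ± 0.867 CPM per kb in PAAD, 24.9 ± 1.33 in TNBC and 26.0 ± 0.727 in PRAD. UHRF1 stood at 9.24 ± 0.246 CPM per kb in PAAD, 8.71 ± 0.557 in TNBC and 13.5 ± 1.44 in PRAD. Among the 3 lines counted together, the DNMT1 ranges were separate in the order COAD, TNBC, PAAD. UHRF1 was 3.61-fold higher in COAD than in PAAD, and its PAAD and TNBC ranges overlapped. The ratio of UHRF1 to DNMT1 per kilobase was accordingly 0.949 ± 0.0544 in COAD, 0.731 ± 0.0327 in PAAD, 0.351 ± 0.0271 in TNBC and 0.517 ± 0.0419 in PRAD.

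The de novo enzymes were less abundant than DNMT1 in all 4 lines. DNMT3A had control levels of 5.14 ± 0.391 CPM per kb in COAD, 2.16 ± 0.0305 in PAAD, 4.05 ± 0.388 in TNBC and 6.49 ± 0.547 in PRAD. DNMT3B had 7.13 ± 0.0984 CPM per kb in COAD, 2.99 ± 0.541 in PAAD, 4.12 ± 0.0892 in TNBC and 8.86 ± 0.0326 in PRAD. Both genes followed the order COAD, TNBC, PAAD with separate ranges. DNMT3B exceeded DNMT3A without overlap in COAD, PAAD and PRAD controls, whereas in TNBC the DNMT3B and DNMT3A ranges overlapped.

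TET1 was at 2.62 ± 0.276 CPM per kb in COAD, 0.432 ± 0.0202 in TNBC and 1.45 ± 0.131 in PRAD. In PAAD the TET1 counts were 0, 0 and 2 in control libraries and 0, 0 and 2 in Ocoxin libraries, all within the 3 counts that a count of 0 allows, so TET1 was not detectable there at this depth and no fold is given. TET1 in COAD was 6.06-fold above TET1 in TNBC. TET2 ran the other way, at 4.35 ± 0.215 CPM per kb in TNBC, 2.95 ± 0.346 in PAAD, 1.13 ± 0.11 in COAD and 5.66 ± 1.05 in PRAD, with separate ranges among the first 3. TET3 had the highest mean of the TET mRNAs in every line, at 5.29 ± 0.999 CPM per kb in COAD, 3.39 ± 0.411 in PAAD, 5.70 ± 0.272 in TNBC and 11.5 ± 1.41 in PRAD, and its COAD and TNBC ranges overlapped. In PAAD the TET3 and TET2 ranges also overlapped. As shares of the summed TET level in controls, TET1 made up 29.1% ± 1.52 in COAD, 0.0309% ± 0.0535 in PAAD, 4.12% ± 0.0238 in TNBC and 7.87% ± 1.30 in PRAD. The share of TET2 was 12.6% ± 0.84 in COAD and 46.6% ± 0.521 in PAAD, and that of TET3 was 58.3% ± 2.34 and 53.4% ± 0.554.

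**Figure D1:**
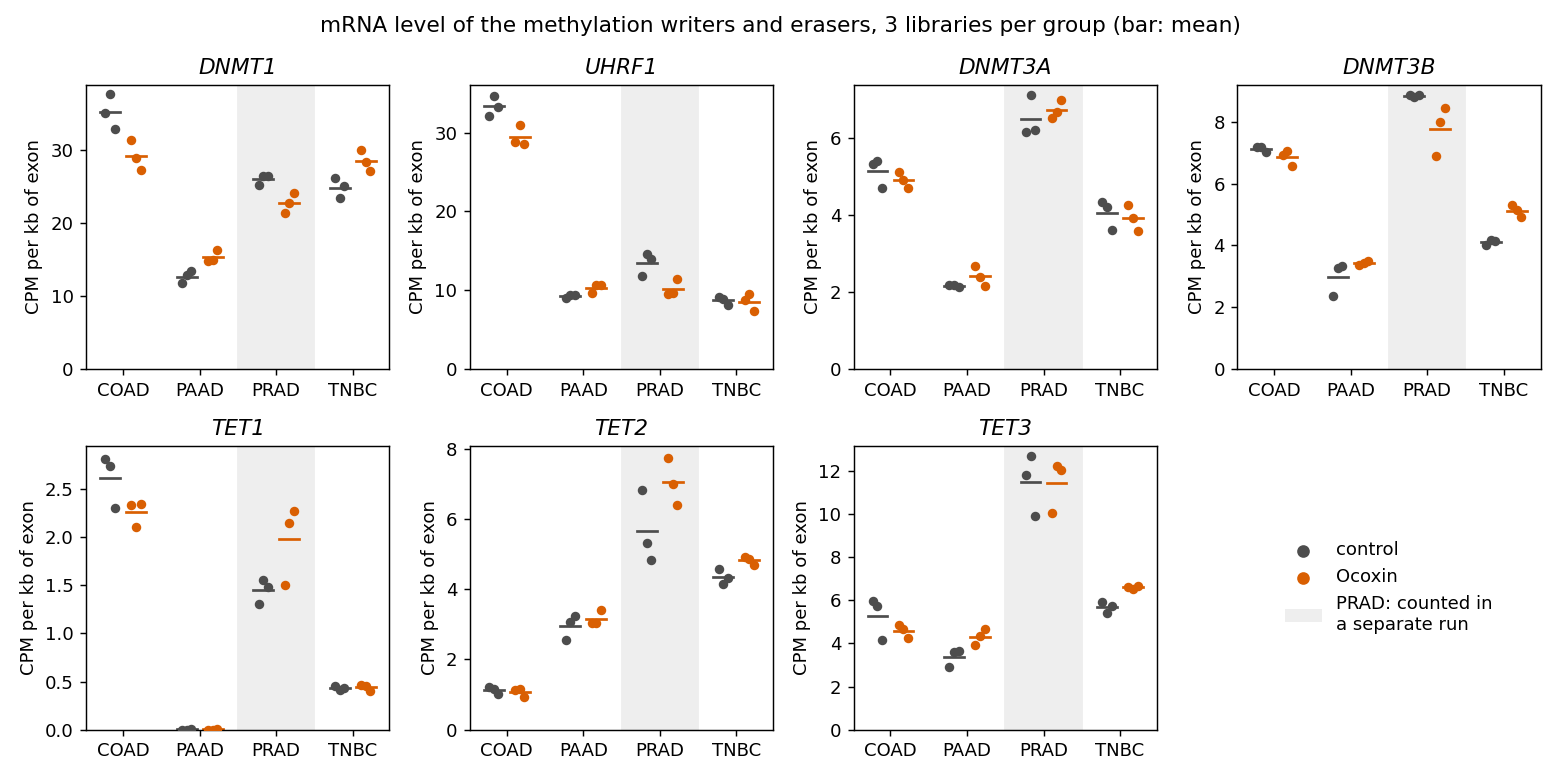
Level of each of the 7 mRNAs in CPM per kb of exon (vertical axis, linear from 0) in the 4 cell lines (horizontal axis). Points are libraries, bars are means of 3, grey is control and orange is Ocoxin, and PRAD is shaded because it was counted separately; DNMT1 control means run from 12.7 to 35.2 and TET1 is near 0 in PAAD.

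**Figure D2:**
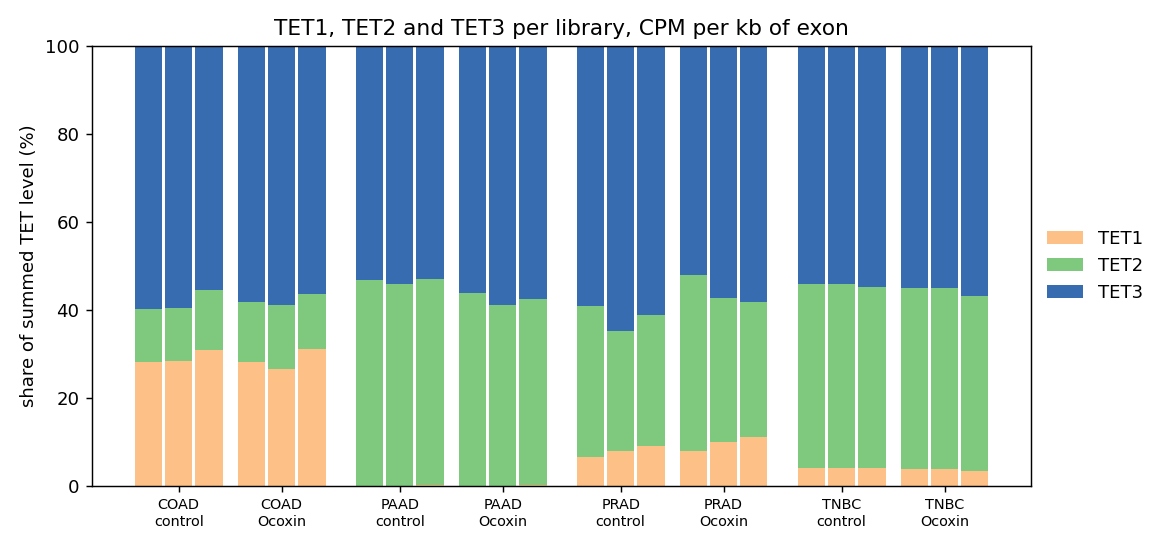
Share of TET1, TET2 and TET3 in their summed level per library in percent (vertical axis), 1 bar per library, grouped by line and treatment. TET3 holds the largest share in every library, TET1 is visible in COAD and PRAD, is small in TNBC at 4.12% in controls and cannot be seen in PAAD.

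The question for Ocoxin was how each gene differed from control within its line. A gene is called altered below when the edgeR quasi-likelihood test gave an adjusted p under 0.05 over all genes of that line. Ranges are said not to overlap when all 3 Ocoxin libraries lay on one side of all 3 control libraries in CPM. Among all tested genes 2.55% were altered in COAD, 21% in TNBC, 8.33% in PAAD and 2.98% in PRAD. The share with ranges that did not overlap was 20.6% in COAD, 38.1% in TNBC, 27.5% in PAAD and 27.6% in PRAD. Of the 7 genes, 1 was altered in COAD, 4 in TNBC, 2 of the 6 tested in PAAD and 0 in PRAD, and since the genes were chosen on these contrasts nothing is read from those counts. An unadjusted edgeR p under 0.05 was found for 3 of 7 in COAD, 4 of 7 in TNBC, 3 of 6 in PAAD and 4 of 7 in PRAD. DESeq2 called 2, 3, 2 and 1 of the 7 in these lines, beside 513, 3453, 1589 and 619 of all genes. The share of all genes at that unadjusted p was not counted, and nothing is read from these counts either. Ranges did not overlap for 2 of 7 in COAD, 4 of 7 in TNBC, 4 of 6 in PAAD and 3 of 7 in PRAD. Bulk RNA cannot tell fewer cells with an mRNA apart from less of it per cell.

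DNMT1, the maintenance methyltransferase, lay lower after Ocoxin in COAD and PRAD and higher in PAAD and TNBC. In COAD the control libraries had 344.1, 368.6 and 321.6 CPM and the Ocoxin libraries 307.6, 282.8 and 267.5 CPM. In PAAD the control libraries had 114.8, 125.6 and 131.5 CPM and the Ocoxin libraries 145.2, 145.6 and 159.0 CPM. Every Ocoxin library was below every control in COAD and above every control in PAAD. In PRAD the values were 246.5, 259.3 and 258.4 CPM in control and 209.8, 223.1 and 236.3 CPM in Ocoxin libraries, again without overlap. In TNBC they were 255.8, 229.9 and 245.0 CPM in control and 293.5, 278.5 and 265.2 CPM in Ocoxin libraries, also without overlap. The log2 fold changes of DNMT1 were -0.27 ± 0.0573 (SE) in COAD, -0.19 ± 0.0484 in PRAD, 0.27 ± 0.0636 in PAAD and 0.20 ± 0.0475 in TNBC, which are folds of 0.829, 0.876, 1.21 and 1.15. The sign held in all alternatives of the fit in the 4 lines. In PRAD the main fit did not call DNMT1, and 4 of 15 alternatives did. The call in COAD was lost without control replicate 1 (-0.27) or 2 (-0.22) and without Ocoxin replicate 2 (-0.25) or 3 (-0.21), that in PAAD without control replicate 1 (0.22) or 2 (0.28), and that in TNBC without control replicate 2 (0.16) or Ocoxin replicate 1 (0.16). DNMT1 shares 69 exonic bases, 0.704% of its length, with S1PR2 on the same strand.

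UHRF1, which recruits DNMT1 to hemimethylated DNA, lay on the same side as DNMT1 in COAD, PAAD and PRAD. In COAD it had 165.0, 178.4 and 170.8 CPM in control and 148.0, 159.5 and 147.2 CPM in Ocoxin libraries. In PRAD it had 60.8, 75.0 and 71.9 CPM in control and 48.6, 49.8 and 58.9 CPM in Ocoxin libraries. All Ocoxin libraries of these lines were below all controls. In PAAD it had 46.1, 48.3 and 48.3 CPM in control and 49.6, 54.7 and 54.9 CPM in Ocoxin libraries, which were all higher. In TNBC it had 47.2, 45.6 and 41.6 CPM in control and 45.1, 48.7 and 37.9 CPM in Ocoxin libraries, where the groups overlapped. The log2 fold changes of UHRF1 were -0.18 ± 0.0511 in COAD, -0.40 ± 0.101 in PRAD, 0.16 ± 0.0658 in PAAD and -0.03 ± 0.0864 in TNBC, and edgeR called none. DESeq2 called UHRF1 in COAD and PRAD, the replicate block called it in those lines and in PAAD, and of all alternatives 5 of 16 called it in COAD, 5 of 15 in PRAD, 1 of 16 in PAAD and 0 of 16 in TNBC. In TNBC, where DNMT1 lay higher and UHRF1 overlapped, the ratio of UHRF1 to DNMT1 per kilobase was 0.324 to 0.378 in controls and 0.272 to 0.333 after Ocoxin.

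DNMT3A, a de novo methyltransferase often mutated in leukemia, overlapped between control and Ocoxin in all 4 lines. Its log2 fold changes were -0.07 ± 0.0638 in COAD, -0.05 ± 0.0794 in TNBC, 0.15 ± 0.0837 in PAAD and 0.05 ± 0.0668 in PRAD. The sign in TNBC turned in some alternatives, over a range of -0.13 to 0.01.

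DNMT3B, the other de novo enzyme, had its clearest separation in TNBC. There it had 18.6, 19.3 and 19.3 CPM in control and 24.6, 23.8 and 22.9 CPM in Ocoxin libraries. The log2 fold change was 0.32 ± 0.0643, 24.7% higher, and the call held in all 16 alternatives. In PAAD the Ocoxin libraries had 15.6, 15.9 and 16.3 CPM and lay just above the controls at 10.9, 15.2 and 15.4 CPM, of which control replicate 1 was low. The PAAD log2 fold change of 0.20 ± 0.115 was as low as 0.06 over the alternatives. In PRAD it had 377, 384 and 376 counts in control and 299, 345 and 354 counts in Ocoxin libraries of like depth, without overlap in CPM and with a log2 fold change of -0.19 ± 0.0828. In COAD it was -0.05 ± 0.0663 and the groups overlapped. In TNBC the ratio of DNMT3B to DNMT3A per kilobase was 1.02 ± 0.117 in controls and 1.32 ± 0.0672 after Ocoxin, 0.925 to 1.15 against 1.25 to 1.38.

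TET1, which carries a CXXC domain that binds unmethylated CpG, was not called in any line. In PRAD it had 111, 136 and 126 counts in control and 131, 186 and 191 counts in Ocoxin libraries, and its log2 fold change was 0.45 ± 0.166. Only Ocoxin replicate 1 of PRAD fell within the control range. In COAD its log2 fold change was -0.21 ± 0.0846, from 26.1, 25.5 and 21.4 CPM in control to 21.7, 19.6 and 21.8 CPM in Ocoxin libraries. In TNBC it was 0.03 ± 0.132 at about 4.01 CPM in controls.

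TET2, a dioxygenase without a CXXC domain, was called in TNBC with ranges that did not overlap. The TNBC libraries had 75.4, 68.4 and 71.2 CPM in control and 81.1, 80.3 and 77.1 CPM after Ocoxin. This log2 fold change of 0.15 ± 0.0487 fell to 0.05 when the dependence on gene length was removed and to 0.04 when that on length and GC content was removed, and the call was kept in 7 of 16 alternatives. It was lost without control replicate 2 (0.12) or 3 (0.14) and without Ocoxin replicate 1 (0.13) or 2 (0.14). In PRAD the control libraries had 112.6, 87.5 and 79.6 CPM and the Ocoxin libraries 127.7, 115.1 and 105.3 CPM, a log2 fold change of 0.32 ± 0.127 in which control replicate 1 was within the Ocoxin range. TET2 overlapped in COAD (-0.07 ± 0.0933) and PAAD (0.10 ± 0.0835).

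TET3, the TET family member with the highest mean per kilobase here, lay higher after Ocoxin in PAAD and TNBC. In PAAD it had 35.7, 44.2 and 44.7 CPM in control and 47.9, 53.4 and 57.1 CPM in Ocoxin libraries. In TNBC it had 72.8, 66.2 and 70.6 CPM in control and 81.3, 80.0 and 82.0 CPM in Ocoxin libraries. Neither line showed overlap. The log2 fold changes were 0.35 ± 0.0885 in PAAD and 0.21 ± 0.0473 in TNBC, with the PAAD call lost without control replicate 1 (0.25), Ocoxin replicate 2 (0.34) or Ocoxin replicate 3 (0.29). In COAD control replicate 3, at 50.9 CPM, was below the other controls at 73.4 and 70.5 CPM and below all Ocoxin libraries at 59.5, 57.6 and 52.2 CPM. The COAD log2 fold change was -0.20 ± 0.148 and -0.34, then called, without that library. In PRAD it was -0.01 ± 0.103. The summed TET level per kilobase was 10.5 ± 0.502 in TNBC controls and 11.9 ± 0.128 after Ocoxin, and the ratio of summed DNMT1, DNMT3A and DNMT3B to summed TET was 3.15 ± 0.0392 and 3.16 ± 0.133. In PRAD this ratio was 2.25 ± 0.276 in controls and 1.82 ± 0.08 after Ocoxin, with 2.02 to 2.55 against 1.75 to 1.91.

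**Figure D3:**
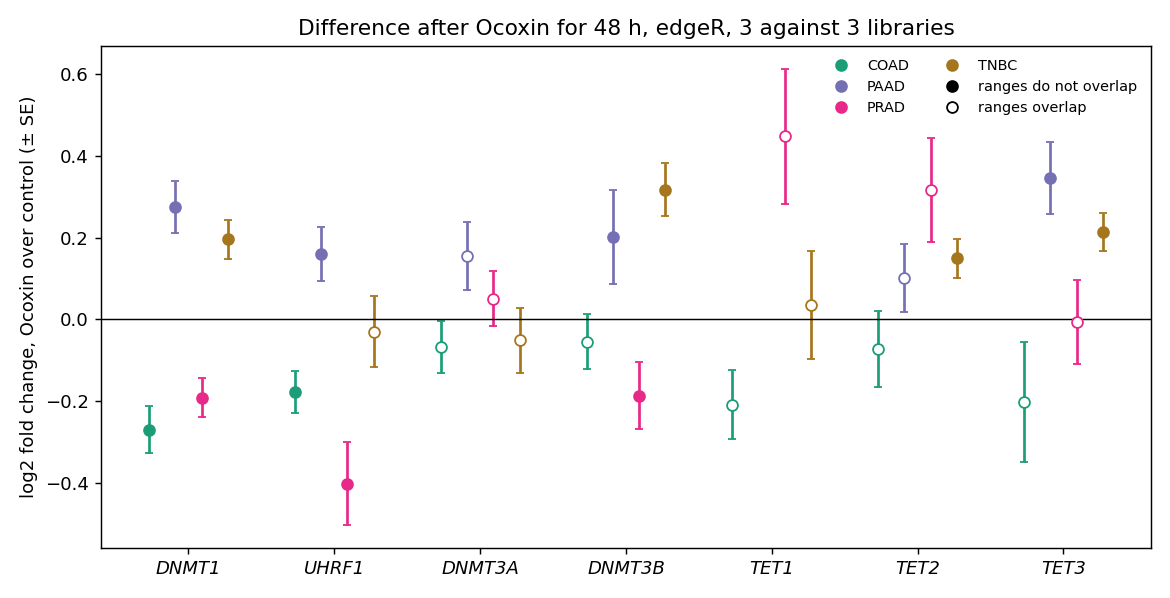
Log2 fold change of each gene, Ocoxin over control (vertical axis), by gene and coloured by cell line, with bars of 1 SE from edgeR and 3 against 3 libraries. Filled points mark ranges that did not overlap and open points ranges that did; DNMT1 is at -0.27 in COAD and -0.19 in PRAD and at 0.27 in PAAD and 0.20 in TNBC, and TET1 in PAAD has no point.

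The genes around the 7 were taken as 7 lists with 109 genes in all, and these were tested. The lists were chosen with earlier results of these data known, so the counts and p-values below are not independent of that choice. Of their genes, 11 of 92 tested were altered in COAD with 2 higher and 9 lower, 25 of 91 in TNBC with 14 higher and 11 lower, 14 of 93 in PAAD with 10 higher and 4 lower, and 11 of 97 in PRAD with 2 higher and 9 lower. Among all tested genes the altered share split into 1.47% higher and 1.09% lower in COAD, 9.65% and 11.3% in TNBC, 4.72% and 3.62% in PAAD, and 2.4% and 0.58% in PRAD. With the replicate number as a block the TNBC count was 45. In COAD the count was 0 without Ocoxin replicate 2 and 2 without control replicate 1 or 2. In PAAD it was 3 when Ocoxin replicate 1 or 2 was left out, 9 for Ocoxin replicate 3, and 5 and 6 for control replicates 1 and 2. In PRAD it was 0 when control replicate 2, control replicate 3 or Ocoxin replicate 2 was left out, 1 for Ocoxin replicate 1 and 2 for control replicate 1. In TNBC it was 16 without Ocoxin replicate 1. Of the 41 gene and line pairs named below by rule, 12 kept their call without any 1 library, and each of these is marked as held.

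Of 32 genes of S phase, when DNMT1 acts, 6 were altered in COAD and 8 in PRAD, each of them lower. In COAD 2 of the 32 had a positive value and 30 a negative one, with a median log2 fold change of -0.15 against -0.01 over all genes. POLA1, a replicative polymerase subunit, was at -0.26 (edgeR adjusted p = 0.00391), TYMS, which makes thymidylate, at -0.26 (edgeR adjusted p = 0.0107) and MCM10, a replication initiator, at -0.22 (edgeR adjusted p = 0.03). In PRAD all 32 had a negative value and the median was -0.28 against 0.01 over all genes. CLSPN, a checkpoint mediator, was at -0.51 (edgeR adjusted p = 0.0257), CDC45, of the replicative helicase, at -0.45 (edgeR adjusted p = 0.0296) and DTL, a ubiquitin ligase receptor, at -0.40 (edgeR adjusted p = 0.0302). The 6 calls of COAD were 0 without control replicate 1 or Ocoxin replicate 2 and 2 without control replicate 2. The 8 of PRAD were 0 without control replicate 2, control replicate 3 or Ocoxin replicate 2, 1 without control replicate 1 or Ocoxin replicate 1, and 13 without Ocoxin replicate 3. With the replicate block 21 were lower in COAD and 24 in PRAD, while genes altered among all genes rose from 451 to 1925 and from 508 to 1451. In 1 fit of all 24 libraries the lower calls were 2 in COAD and 24 in PRAD.

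In PAAD 5 of the 32 S phase genes were higher and 1 lower, with a median of 0.07. CDT1, which licenses origins, was at 0.37 (edgeR adjusted p = 0.00406, held) and E2F1, a transcription factor of the G1 to S transition, at 0.26 (edgeR adjusted p = 0.013), while MCM6, a helicase subunit, was at -0.28 (edgeR adjusted p = 0.0142). The 1 lower call was lost without Ocoxin replicate 1 or 2. The 5 higher calls were 1 without Ocoxin replicate 1, Ocoxin replicate 2 or control replicate 2, 2 without control replicate 1 and 3 without Ocoxin replicate 3. In TNBC 3 were higher and 4 lower, with a median of -0.03, and with the replicate block 6 and 10. CHAF1A, a histone chaperone of the fork, was at 0.28 (edgeR adjusted p = 0.00169), CDT1 at 0.25 (edgeR adjusted p = 0.00286) and DTL at 0.24 (edgeR adjusted p = 0.00416), and all of these held. The 4 lower calls in TNBC were 1 without Ocoxin replicate 1 or control replicate 3, and 2 without Ocoxin replicate 2. DNMT1 lay on the side of the S phase median in COAD, PAAD and PRAD and on the other side in TNBC, where the median was near 0. The part of cell cycle position in the DNMT1 and UHRF1 values was not tested.

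**Figure D4:**
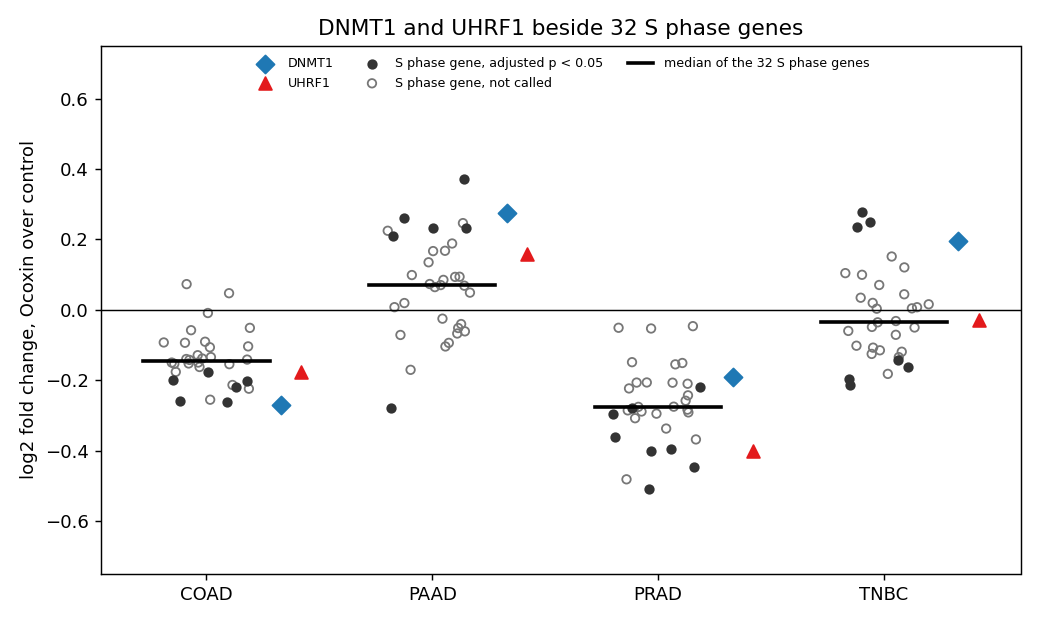
Log2 fold change, Ocoxin over control (vertical axis), of the 32 S phase genes as circles, filled where the adjusted p was under 0.05, with the list median as a bar, beside DNMT1 (blue diamond) and UHRF1 (red triangle) in each line (horizontal axis; sideways scatter has no meaning). The medians are -0.15 in COAD, -0.28 in PRAD, -0.03 in TNBC and 0.07 in PAAD.

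Over the 24 libraries, with each line's mean taken off the log2 CPM, UHRF1 had a Pearson r of 0.83 with the mean of the 32 S phase genes and DNMT1 of 0.65, against 0.52 for DNMT3B, 0.26 for TET3, -0.13 for DNMT3A, -0.40 for TET2 and, over the 18 libraries without PAAD, -0.25 for TET1. With the mean of each group taken off, so that only the spread between replicates was left, r was 0.55 for DNMT3B, 0.50 for UHRF1, 0.49 for TET1, 0.45 for DNMT1, 0.18 for TET3, -0.18 for TET2 and -0.38 for DNMT3A. The points share treatment, library and depth, so these are descriptions. DNMT1 and UHRF1 had an r of 0.65 with line means off, and DNMT1 with TET3 and with DNMT3B 0.76 each. Among 13257 other genes, those most like DNMT1 were UBAP2 (0.94), BCOR (0.93) and SMC1A (0.93), and those most like UHRF1 were MCM7 (0.88), TACC3 (0.86) and RBM10 (0.86). The nearest were SBNO2, CDC42BPG and EVPL for DNMT3A (0.83 to 0.81), LARP1, TCOF1 and CDK5RAP2 for DNMT3B (0.86 to 0.83), ZNF841 and HIVEP1 for TET2 (0.89 and 0.87) and PCNT, AGO2 and SYNE2 for TET3 (0.94 to 0.92). For TET1, with the PAAD libraries at or near 0 counts, they were SHPRH (0.87), ZNF594 (0.83) and QSER1 (0.78).

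Among 16 partners of the DNA methyltransferases, LIG1, the replicative ligase whose methylated form binds UHRF1, was at 0.25 in PAAD (edgeR adjusted p = 0.0164) and -0.35 in PRAD (edgeR adjusted p = 0.0421). CDCA7, of the HELLS remodeller, fell in COAD (-0.23, edgeR adjusted p = 0.0102) and PAAD (-0.35, edgeR adjusted p = 0.0247). UHRF2, the paralog of UHRF1, fell in COAD (-0.29, edgeR adjusted p = 0.0175) and was higher in TNBC (0.17, edgeR adjusted p = 0.00492). In TNBC the histone methyltransferases NSD1 (0.44, edgeR adjusted p = 8.97e-05, held) and SETD2 (0.19, edgeR adjusted p = 0.0265) were higher and EED, of the Polycomb complex, was lower (-0.19, edgeR adjusted p = 0.0189). In all, 4 of 15 tested partners were altered in TNBC, 2 in COAD, 2 in PAAD and 1 in PRAD, with medians of 0.08, -0.10, -0.04 and -0.10. The LIG1 call in PRAD was lost without any 1 of the 6 libraries.

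Among the TET partners and the enzymes that excise oxidised bases, none of 12 tested in COAD, 13 in PAAD and 13 in PRAD was altered by edgeR or DESeq2, with 2, 2 and 4 at an unadjusted p under 0.05. In TNBC 3 of 13 were altered. OGT, the glycosyltransferase bound by TET2 and TET3, rose by 0.30 on the log2 scale (edgeR adjusted p = 0.000702, held), XRCC1, a scaffold of base excision repair, by 0.21 (edgeR adjusted p = 0.00979), and GADD45B, a stress-induced protein linked to demethylation, fell by 0.46 (edgeR adjusted p = 0.00272, held). Of the genes for the TET substrate and cofactors, 5 of 10 were altered in TNBC, 2 higher and 3 lower. The higher genes were IDH1, which makes cytosolic 2-oxoglutarate, at 0.14 (edgeR adjusted p = 0.00534) and SLC23A2, a vitamin C transporter, at 0.16 (edgeR adjusted p = 0.0137). Of the lower genes, IDH2, which makes mitochondrial 2-oxoglutarate, was at -0.19 (edgeR adjusted p = 0.0101), and SDHA and SDHC, subunits of succinate dehydrogenase, were at -0.20 each (edgeR adjusted p = 0.00714 and 0.00399, both held). In PAAD SDHD was at -0.18 (edgeR adjusted p = 0.0499), which was lost without any 1 library. None of 10 in COAD and 11 in PRAD was altered by edgeR or DESeq2, with 2 and 4 at an unadjusted p under 0.05.

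Of the methyl donor cycle, MAT2A, which makes S-adenosylmethionine, fell in COAD from 542.3 to 458.7 CPM (-0.24, edgeR adjusted p = 0.00964). Its liver paralog MAT1A rose in PRAD from 5.34 to 9.76 CPM (0.87, edgeR adjusted p = 0.0291). In TNBC AHCY, which clears S-adenosylhomocysteine (-0.19, edgeR adjusted p = 0.00294, held), and AMD1, which diverts the donor to polyamines (-0.21, edgeR adjusted p = 0.00491, held), were lower and MTR, methionine synthase, was higher (0.19, edgeR adjusted p = 0.0227). No gene of 9 passed in PAAD by edgeR or DESeq2, and 2 had an unadjusted p under 0.05. Of 7 readers of methylated CpG, ZBTB38 was higher in PAAD (0.30, edgeR adjusted p = 0.00745, held), PRAD (0.27, edgeR adjusted p = 0.0399) and TNBC (0.19, edgeR adjusted p = 0.0103), and was at 0.07 in COAD (edgeR adjusted p = 0.56). The PRAD call of ZBTB38 was lost with DESeq2 and without any 1 library other than control replicate 1, and its TNBC call when the length trend was removed. MBD1 was higher in PAAD (0.23, edgeR adjusted p = 0.0191).

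Germline genes that methylation keeps silent in most adult cells were mostly unexpressed, with 5 of 16 tested in COAD, 4 in TNBC, 7 in PAAD and 7 in PRAD. In COAD PIWIL1, an Argonaute protein of the germline, rose from 1.68 ± 0.576 to 3.43 ± 0.252 CPM (log2 fold change 1.04, edgeR adjusted p = 0.0128) and MAGEB2 from 8.52 ± 1.00 to 12.2 ± 0.712 CPM (0.51, edgeR adjusted p = 0.0126). In PAAD PIWIL1 (0.36, edgeR adjusted p = 0.0438) and MAGEC1 (0.56, edgeR adjusted p = 0.0205) were higher and DAZL, an RNA-binding protein of germ cells, was lower (-0.68, edgeR adjusted p = 0.0221). In TNBC STK31 was called by edgeR and not by DESeq2, at under 1 CPM in controls. In PRAD none of 7 was altered by edgeR or DESeq2, with 1 at an unadjusted p under 0.05. Both COAD calls were lost without control replicate 2 or Ocoxin replicate 2.

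Whether a listed gene responded differently between the 4 lines was tested with an interaction of treatment and line in 1 fit of the 24 libraries. Of 103 listed genes tested 31 passed, where 10.9% of all genes did. These included 20 of the 32 S phase genes, 3 of 15 partners and 4 of 14 TET partners, and 0 of 7 readers. LIG1 (edgeR adjusted p = 7.33e-05), DTL (edgeR adjusted p = 9.4e-06) and CHAF1A (edgeR adjusted p = 1.62e-05) were among them. The count was 18 of 100 when PRAD was left out, where 11% of all genes passed. The fit of 24 libraries held 24631 genes, whereas 17070 to 17659 were tested within a line. That background thus included genes not tested in some lines, while all 32 S phase genes were tested in each. The difference of the 7 genes between lines was not tested, since they were chosen on it.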

How the data were processed

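RNA from adhered cells was made into stranded mRNA libraries and sequenced on a NovaSeq. Before deposit the authors used fastp for trimming, STAR with hg38 for alignment and picard to drop duplicates, and deposited raw counts per gene from featureCounts 2.0.3. Counting ignored strand. COAD, PAAD and TNBC were counted with the paired-end option and PRAD without it, so the number of counts per fragment may differ between PRAD and the others. The deposited tables also give the exonic length of each gene. This length need not be that of the expressed transcript, so orders, shares and ratios between genes depend on it. All 37 mitochondrial genes were at 0 in every library. The floor of 3 counts covers counting error only, whereas each ± is an SD over 3 libraries or an SE of the edgeR fit.

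Counts were tested within each cell line with edgeR 4.0.16 (filterByExpr, TMM, robust quasi-likelihood F test, Benjamini-Hochberg over all genes, threshold 0.05) in R 4.3.3. The biological coefficient of variation was 6.28 to 6.84%. CPM used TMM-scaled library sizes, and CPM per kb divided by exonic length. Alternatives were DESeq2 1.42.0, its size factors, other count filters (a minimum of 10 in every library, or none), 1 fit of all 24 libraries, the replicate number as a block, halved counts, removal of trends with length and with length and GC content (5 degrees of freedom; the last was chosen after the data were seen), and leaving out each library. The scripts were tested on simulated data. The 7 genes and the lists were chosen with earlier results of these data known. Besides the 7 genes, the text names up to 3 altered genes of each list and line with the largest change at a mean of at least 1 CPM, and the 3 genes whose pattern correlated best with each of the 7. One gene that this rule names is not reported here. STK31, IDH1 and SLC23A2 in TNBC, named outside this rule, were chosen after their values were seen, as were the other lines' values of named genes. RefSeq promoter windows were matched by symbol.

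Same-numbered control and Ocoxin libraries had r of 0.127, 0.12 and 0.358 in TNBC (log2(CPM + 0.5) deviations), all over 0.1. That did not hold for every pair of the other lines, with 0.243, 0.0997 and 0.425 in PRAD. In TNBC control replicate 1 had a higher r, 0.134, with an Ocoxin library of another number. The labels do not say that a number marks a shared culture or day.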

Additional observations from a re-analysis of the deposited data

Results flagged for a closer look

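The 3 Ocoxin libraries moved to opposite sides of the controls in different cell lines for 3 of the genes, and this difference was not tested. Within a single line, 20.6 to 38.1% of all tested genes had ranges that did not overlap. The share of all genes on opposite sides in different lines was not counted, so nothing is read from the count of 3. DNMT1 had log2 fold changes of -0.27 in COAD and -0.19 in PRAD against 0.27 in PAAD and 0.20 in TNBC. UHRF1 had -0.18 in COAD and -0.40 in PRAD against 0.16 in PAAD. DNMT3B had -0.19 in PRAD against 0.20 in PAAD and 0.32 in TNBC. In PAAD its lowest Ocoxin library had 15.6 CPM and its highest control 15.4 CPM.

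Of the 34 listed genes named by rule, 13 passed the edgeR interaction test between the lines, as did 10.9% of all genes. The rule picked the 34 for a large change in a line of these same libraries, so nothing is read from that count. The edgeR adjusted p was 9.4e-06 for DTL, 1.62e-05 for CHAF1A, 5.89e-05 for CDC45, 7.33e-05 for LIG1, 0.000112 for E2F1, 0.000703 for UHRF2, 0.00323 for CLSPN, 0.00518 for MAT2A, 0.00554 for NSD1, 0.00656 for CDT1, 0.00878 for GADD45B, 0.0147 for XRCC1 and 0.0199 for MCM10. Line, dilution and, for PRAD, the counting run differed together.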

How the results depend on the processing

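The sign of the Ocoxin difference was the same under every alternative for 22 of the 27 gene and line pairs tested, among them all pairs whose ranges did not overlap, and no call reversed. The order of the 7 levels within each line was the same in TPM, which scales by length before library size. TPM uses the same counts and exonic lengths as CPM per kb, so the order within a library is fixed by construction. The TPM order is therefore no check of the ranking.

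Genes altered were 451, 1440, 508 and 3644 in COAD, PAAD, PRAD and TNBC. They became 1925, 3998, 1451 and 5878 with the replicate block, 821 in COAD, 2300 in PAAD and 1023 in PRAD with length and GC trends removed, and 2305, 3408, 3581 and 5632 with both. Without a filter they were 734 in COAD and 1092 in PRAD, and in 1 fit of all libraries 288 and 998. Leaving out a library gave 2285 to 3864 in TNBC, 121 to 782 in COAD, 641 to 1715 in PAAD and 3 to 398 in PRAD. The share of calls that were higher was 57.4% in COAD and 44.9% with the block, and 80.5% in PRAD against 59.2% in 1 fit of all libraries, 63.2% without a filter, 68.4% with the block and 59.8% with length and GC trends removed and the block.

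Listed genes altered became 33, 31, 32 and 45 with the replicate block, 21 in COAD, 24 in PAAD and 26 in PRAD with length and GC trends removed, 38, 32, 47 and 42 with both, and 5 in COAD and 32 in PRAD in 1 fit. In PRAD they were 19 with DESeq2, 30 without a filter and 18 with the length trend removed. Leaving out a library gave 16 to 32 in TNBC, 0 to 14 in COAD, 3 to 16 in PAAD and 0 to 16 in PRAD. The listed genes whose response differed between lines were 18 without PRAD and 59 with the replicate block. Of all genes, 11% and 23.3% passed in these fits, against 10.9% in the main fit.

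Of the 7 genes, COAD had 2 called with DESeq2, without a filter or with length and GC trends removed, 4 with the replicate block and 3 with both. PAAD had 1 in 1 fit. PRAD had 1 with DESeq2, 2 without a filter or in 1 fit, 3 with the block and 4 with trends and block. TNBC had 2 in 1 fit. Leaving out a library gave 0 to 2 in COAD and PAAD, 0 in PRAD and 2 to 4 in TNBC.

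Pairing by replicate number was checked from deviations alone. Same-numbered libraries had r of 0.164, 0.0123 and 0.26 in COAD, 0.132, 0.0727 and 0.247 in PAAD and 0.243, 0.0997 and 0.425 in PRAD, and each control library was most like the Ocoxin library of its own number in PAAD and PRAD only. With a prior count of 2 the TNBC values were 0.0726, 0.062 and 0.224, so the pairing there depended on the pseudocount. The cause of these shifts was not tested. PRAD libraries had the fewest counts, which limited TET1 to 111 to 191 counts.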
